A study of Mus musculus with 23 samples.

Results

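The nuclear genome encodes most subunits of the mitochondrial oxidative phosphorylation complexes. Members were the genes whose symbols follow the subunit naming of complex I (Ndufa, Ndufb, Ndufc, Ndufs or Ndufv with a number), complex II (Sdha to Sdhd), complex III (Uqcr), complex IV (Cox4 to Cox8) and complex V (Atp5), leaving out Cox6a2 and pseudogene symbols. This gave 83 of 26139 genes, with 37 in complex I, 4 in complex II, 8 in complex III, 17 in complex IV and 17 in complex V. The symbols leave out Cyc1 and Ndufab1, which also encode subunits. They place Atp5s and Atp5sl in complex V by name alone, and whether these 2 encode subunits of it was not checked. RNA was sequenced from 23 libraries of 1000 sorted macrophages each, from C57BL/6 mice. One table of values held day-7 pup macrophages of spleen (red pulp macrophages) and bone marrow, with 3 vavCre (RPM_d7_vavCre, BMM_d7_vavCre) and 3 wild-type libraries (RPM_d7_WT, BMM_d7_WT) per tissue. The other held red pulp macrophages of Spic_KO pups on day 7 (2 libraries) with their own wild-type pups (RPM_d7_Spic_WT, 3), and of adults labelled TAM_CreERT2 (RPM_TAM_CreERT2, 4) or wild type (RPM_TAM_WT, 2). vavCre names a Cre recombinase under control of the Vav gene, which is active across blood cells and so not in macrophages alone, and CreERT2 is a Cre switched on by tamoxifen. The labels neither name the floxed gene nor define TAM, but the series design speaks of remaining cells that lack Pparg, the gene of a nuclear receptor. They do not say whether replicates are separate animals, so p-values measure only the spread between these libraries, which may be technical.

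Complexes I and II pass electrons from NADH and succinate to ubiquinone, complex III hands them on to cytochrome c, and complex IV gives them to oxygen. Complexes I, III and IV pump protons, and complex V uses the gradient to make ATP. Core subunits carry the redox centres, accessory subunits surround them, and a few subunits of complexes I, III, IV and V are made from mitochondrial DNA. Macrophages that clear red cells are rich in iron and haem, both of which the respiratory complexes need.

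The promoters of these genes are known for sites of NRF1, ETS factors such as GABPA, NF-Y and SP1. RefSeq start sites (GRCm38.p6) were matched for 69 members, and the 250 bases upstream were searched on both strands for a pair of GCGC with 2 bases between them (NRF1), CCGGAAG (ETS), CCAAT (NF-Y) and GGGCGG (GC box). The NRF1 letters stood in 13 members (18.8%), against 5.09% of 27025 promoters. ETS letters stood in 11 members (15.9%), against 7.05% of all, CCAAT in 31 (44.9% against 34.5%) and the GC box in 25 (36.2% against 32.9%). Of the 18 members that fell in adults, 17 had a promoter, of which 2 held the NRF1 letters, 2 the ETS letters, 5 CCAAT and 8 the GC box. A match is a description of letters, not a bound site. The 4 promoters printed here belong to Ndufa1, which rose in vavCre macrophages of both tissues, and to Ndufa11, Ndufa8 and Uqcr11, which fell in adults. They lie at chrX:37191239-37191488 (Ndufa1, minus strand), chr17:56717512-56717761 (Ndufa11, plus), chr2:36049339-36049588 (Ndufa8, minus) and chr10:80406822-80407071 (Uqcr11, minus). They are written 5′ to 3′ toward the gene. Capitals mark a GC box on the opposite strand in Ndufa1, NRF1 letters in Ndufa11 and Ndufa8, and ETS letters in Uqcr11. Ndufa8 also holds 2 GC boxes, which are left in small letters.
Ndufa1: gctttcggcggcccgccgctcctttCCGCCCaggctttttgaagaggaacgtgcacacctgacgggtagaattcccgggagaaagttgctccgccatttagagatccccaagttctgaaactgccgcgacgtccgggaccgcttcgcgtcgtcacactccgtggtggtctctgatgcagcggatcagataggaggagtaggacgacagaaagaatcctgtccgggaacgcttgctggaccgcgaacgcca
Ndufa11: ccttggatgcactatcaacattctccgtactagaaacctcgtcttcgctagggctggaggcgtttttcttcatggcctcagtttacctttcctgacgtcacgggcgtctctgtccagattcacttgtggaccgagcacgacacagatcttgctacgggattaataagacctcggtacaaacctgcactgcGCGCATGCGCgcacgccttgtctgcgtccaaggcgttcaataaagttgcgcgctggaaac
Ndufa8: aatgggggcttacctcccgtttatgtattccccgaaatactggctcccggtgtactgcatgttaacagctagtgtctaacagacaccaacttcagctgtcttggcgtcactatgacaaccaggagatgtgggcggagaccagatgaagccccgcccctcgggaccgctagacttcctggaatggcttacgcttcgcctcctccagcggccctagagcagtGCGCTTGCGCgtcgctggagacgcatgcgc
Uqcr11: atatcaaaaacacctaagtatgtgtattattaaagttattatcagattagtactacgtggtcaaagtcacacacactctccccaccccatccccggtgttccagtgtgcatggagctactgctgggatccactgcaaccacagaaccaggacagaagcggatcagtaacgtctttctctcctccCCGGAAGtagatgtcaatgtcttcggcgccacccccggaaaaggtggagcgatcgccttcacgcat

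Values are the deposited normalised read counts, which compare within a table only. Libraries held 12.01 to 17.1 M reads in RPM_d7_vavCre, 11.6 to 21.7 in RPM_d7_WT, 4.26 to 7.88 in BMM_d7_vavCre and 4.58 to 10.8 in BMM_d7_WT. In the other table they held 2.85 to 3.07 M reads in RPM_d7_Spic_KO, 4.24 to 6.29 in RPM_d7_Spic_WT, 0.693 to 1.67 in RPM_TAM_CreERT2 and 1.90 to 4.24 in RPM_TAM_WT. An earlier account of these data treats RPM_d7_Spic_KO replicate 2 and RPM_TAM_CreERT2 replicate 2 as standing apart, and their table is therefore also read without them. Pparg was not lower in vavCre spleen (2496 to 4002 in RPM_d7_vavCre, 1550 to 2124 in RPM_d7_WT), and Spic kept 931 and 1236 in the Spic_KO libraries, against 1993 to 3110 in RPM_d7_Spic_WT. A gene's total says nothing about a deleted exon, so neither gene checks a label. The 11 macrophage markers made up 1.22 to 3.02% of the summed values in each library, and the 14 erythroid markers 0.978 to 20.8%, so every library also held red cell RNA. In such bulk samples, fewer cells of a type and less RNA per cell cannot be told apart.

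Of the 83 members, 81 were tested in the first table and 78 in the other, which had no row for Atp5sl. Cox8b and Cox8c, muscle and testis forms of a complex IV subunit, were listed at 0 throughout the first table and passed the filter in neither, and Ndufa4l2 and Cox7b2 did not pass it in the other table. All members together took 1.56 ± 0.0555% of the summed values in RPM_d7_vavCre, against 1.49 ± 0.0174% in RPM_d7_WT (SD, n = 3 each). In marrow they took 1.67 ± 0.0812% in BMM_d7_vavCre and 1.69 ± 0.0594% in BMM_d7_WT. The share was 1.59 ± 0.0470% in RPM_d7_Spic_KO (n = 2) and 1.63 ± 0.224% in RPM_d7_Spic_WT (n = 3). In adults it was 0.827 ± 0.0849% in RPM_TAM_CreERT2 (n = 4) and 0.971 ± 0.135% in RPM_TAM_WT (n = 2). The 2 adult groups thus lay below both day-7 groups of their table, with no overlap of libraries. Per kb of transcript, Cox4i1, the common form of the regulatory subunit 4 of complex IV, had the highest mean of all members in each group of the first table, with 10125 in RPM_d7_vavCre and 9004.8 in RPM_d7_WT. It led in day-7 spleen of the other table too (1937.3 in RPM_d7_Spic_KO and 2283.2 in RPM_d7_Spic_WT), whereas Cox5a led in adults (1859.3 in RPM_TAM_CreERT2 and 1630.5 in RPM_TAM_WT).

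**Figure D1:**
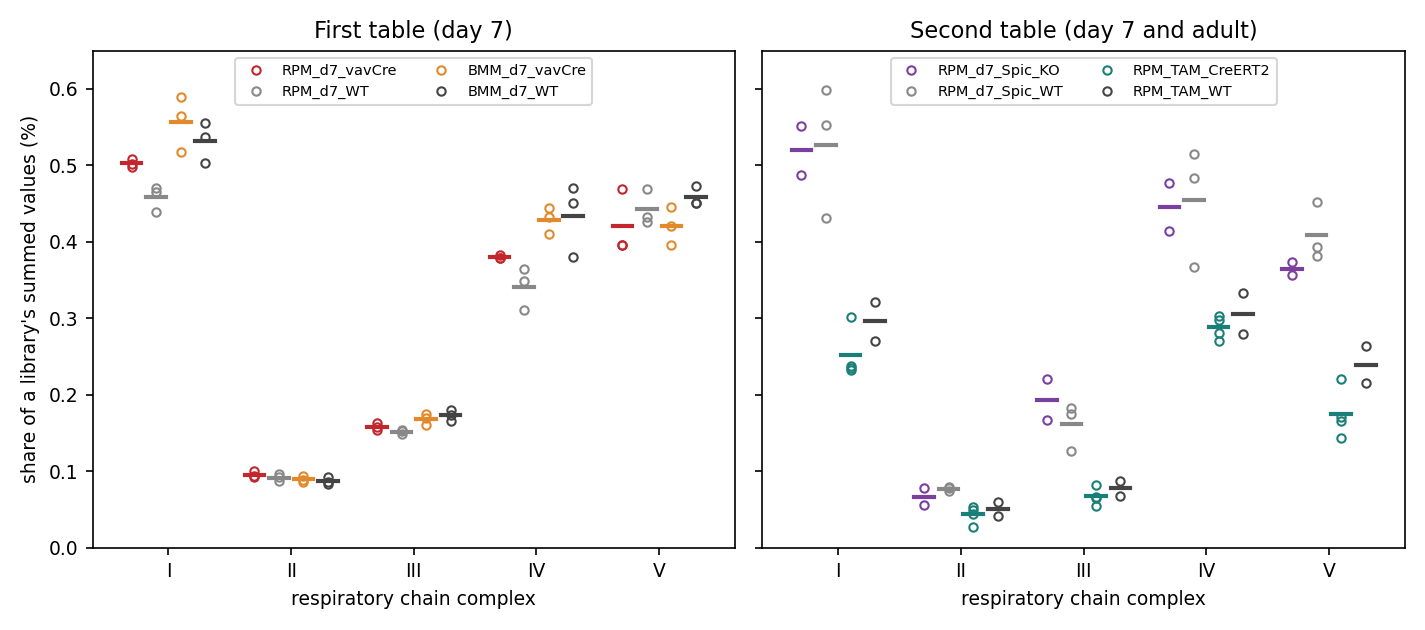
Share of a library's summed values taken by the members of each complex (y axis, percent), for the groups of each table (panels). Circles are libraries and bars are group means; the adult groups sit below the day-7 groups for every complex by their means.

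The first comparison asked how day-7 splenic macrophages differed in vavCre pups. Of 81 members tested, 2 rose and none fell (limma, adjusted p under 0.05), where 5.52% of all genes were called (2.98% higher and 2.54% lower in vavCre). Ndufa1 encodes a small accessory subunit of the membrane arm of complex I that its assembly needs. It had 2564, 3428 and 3277 in RPM_d7_vavCre, against 1351, 1292 and 1057 in RPM_d7_WT. The lowest vavCre library was well above the highest wild-type one, with a log2 change of 1.32 (SE 0.157, limma adjusted p = 1.56e-05). This call held under all 17 alternatives, with an adjusted p of 6.93e-14 to 0.000854. Ndufa1 (ENSMUSG00000016427, chromosome X, 37187588 to 37191163, minus strand, GRCm38) shares no exon with another gene, and its 7373.9 per kb was the highest of complex I in RPM_d7_vavCre. In RPM_d7_WT it had 2943.5 per kb and Ndufb8 was highest, with 4765.2.

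Uqcrb, the ubiquinone-binding small subunit of complex III, had 3336, 3742 and 3545 in RPM_d7_vavCre, against 2565, 2802 and 2077 in RPM_d7_WT. The groups did not overlap, and the log2 change was 0.52 (SE 0.132, limma adjusted p = 0.0229). Its call was lost without RPM_d7_WT replicate 1 (adjusted p = 0.0572) or 3 (0.118), and without RPM_d7_vavCre replicate 2 (0.109) or 3 (0.0818). It was lost too with equal sums per library (0.0717), and 50 of its exon bases are shared with Gm10767 on the other strand.

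The median log2 change of members was 0.18, against -0.02 over all genes, with 60 of 81 members above 0. By complex the median was 0.21 in I, 0.13 in II, 0.18 in III, 0.26 in IV and 0.08 in V. In 37 members all vavCre libraries were above all wild-type ones and in 2 all were below, where 11.6% and 12.4% of all genes were. After rescaling each library to the same sum of values, 21 were above and 2 below, where 9.26% and 14.8% of all genes were. The 7 core subunits of complex I had a median of -0.05 and the 30 others 0.27. Among the paired isoforms, Cox7a1, the heart and muscle form, had 39.9, 55.1 and 26.2 in RPM_d7_vavCre, against 24.2, 11.6 and 7.30 in RPM_d7_WT (log2 change 1.52, limma adjusted p = 0.411). Its common counterpart Cox7a2 had a log2 change of 0.31.

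Cox4i2, the form of subunit 4 known from lung and from low oxygen, had 9.21, 8.48 and 14.3 in RPM_d7_vavCre, against 90.0, 81.4 and 105 in RPM_d7_WT. Every vavCre library lay far below every wild-type one, but the log2 change of -3.02 missed the threshold (SE 1.15, limma adjusted p = 0.168). It passed with DESeq2 (adjusted p = 0.0235), with only the compared groups in the limma fit (0.0091) and with library weights (0.0371). The common form Cox4i1 had a log2 change of 0.17.

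Other genes of the pathway were read from lists. Of 11 tested subunits from mitochondrial DNA 1 rose: mt-Nd1, a core subunit of complex I, by 0.57 (limma adjusted p = 0.00187). The other 10 had log2 changes above 0, that of mt-Atp6 from 20 reads in 1 of the 6 libraries and none in the others. None of 48 assembly factors and none of 13 citric acid cycle genes was called. Of these, 24 assembly factors and 1 citric acid cycle gene had log2 changes above 0. The cycle genes had a median of -0.27, against -0.02 over all genes. Ppargc1b, a coactivator of mitochondrial gene expression, fell by 2.38 on the log2 scale (limma adjusted p = 0.0265). Etfb, which passes electrons from fatty acid oxidation to ubiquinone, had 3148, 2343 and 2592 in RPM_d7_vavCre, against 5562, 5180 and 5529 in RPM_d7_WT. It fell by 1.02 (limma adjusted p = 5.34e-05), and Immt, a scaffold of the inner membrane, fell by 0.72 (0.0387). The Immt call was lost without any 1 of the 6 libraries (0.0708 to 0.149), and the Ppargc1b call without replicate 1 or 2 of RPM_d7_vavCre (0.0803 and 0.102) or of RPM_d7_WT (0.111 and 0.136). In the same libraries 9 of 14 erythroid markers fell, their summed share being 1.17 to 1.62% in RPM_d7_vavCre and 2.31 to 3.52% in RPM_d7_WT. Of 21 cell cycle genes 10 fell (0.154 to 0.196% in RPM_d7_vavCre, 0.318 to 0.328% in RPM_d7_WT). Of the macrophage markers 1 of 11 rose and 2 fell, and 1 of 7 B cell and 1 of 7 stromal and endothelial markers fell. Their part in the results was not tested.

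In marrow, vavCre and wild-type macrophages differed in 3 of 81 members, 1 of which rose and 2 of which fell, where 7.81% of all genes were called (3.41% higher and 4.4% lower in vavCre). Ndufa1 had 2926, 2677 and 3003 in BMM_d7_vavCre, against 1884, 1551 and 2056 in BMM_d7_WT. All vavCre libraries were again above all wild-type ones, with a log2 change of 0.66 (SE 0.157, limma adjusted p = 0.0129), and the call was lost without BMM_d7_WT replicate 2 (0.0554). Cox4i2 had 50.2, 0 and 0 in BMM_d7_vavCre, against 64.4, 78.8 and 81.5 in BMM_d7_WT, a log2 change of -4.35 (SE 1.15, limma adjusted p = 0.0241) that depends on the added pseudocount. The vavCre library with reads lay close to the wild-type ones, and the other 2 had none. The call was lost with edgeR (0.271) and DESeq2 (0.161). Cox6b2, the testis form of another complex IV subunit, had 44.0, 21.8 and 22.6 in BMM_d7_vavCre, against 181, 87.6 and 106 in BMM_d7_WT. It fell by 2.05 (SE 0.576, limma adjusted p = 0.0339), with no overlap of the groups, and edgeR did not call it (0.0562).

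Both minor complex IV forms rested on few libraries. Without any 1 of BMM_d7_WT replicate 1 or 3 and BMM_d7_vavCre replicate 2 or 3, neither was called, and without BMM_d7_WT replicate 2 Cox4i2 was not (0.0618). Their common counterparts Cox4i1 and Cox6b1 had log2 changes of 0.11 and 0.09. Over all members the median log2 change was 0.06, against -0.04 over all genes, with 0.10 in complex I, 0.05 in II, -0.02 in III, 0.06 in IV and -0.03 in V. In 7 members all vavCre libraries were above all wild-type ones and in 3 below, where 8.96% and 10.9% of all genes were. With equal sums per library 4 were above and 3 below, where 7.88% and 12% of all genes were. Of the other mitochondrial lists, the assembly factor Surf1 of complex IV rose by 0.91 and Cox10, which makes its haem, fell by 2.75, Etfb fell by 0.68 and Idh3a, of the citric acid cycle, fell by 0.98 on the log2 scale. Surf1 was not called without BMM_d7_vavCre replicate 1 (0.0584) or 2 (0.0794) or BMM_d7_WT replicate 3 (0.0557), nor Idh3a without BMM_d7_vavCre replicate 3 (0.138) or any 1 of the BMM_d7_WT libraries (0.0626 to 0.084). Erythroid markers fell here too (12 of 14; 0.978 to 1.44% of summed values in BMM_d7_vavCre, 2.58 to 3.77% in BMM_d7_WT). Of the cell cycle genes 12 of 21 fell (0.141 to 0.218% in BMM_d7_vavCre, 0.292 to 0.362% in BMM_d7_WT), as did 2 of 7 B cell markers (0.0115 to 0.0269% in BMM_d7_vavCre, 0.0368 to 0.0980% in BMM_d7_WT) and 1 of 7 stromal and endothelial markers. Of the 11 macrophage markers 2 rose and 3 fell, and the part of these lists in the results was not tested.

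**Figure D2:**
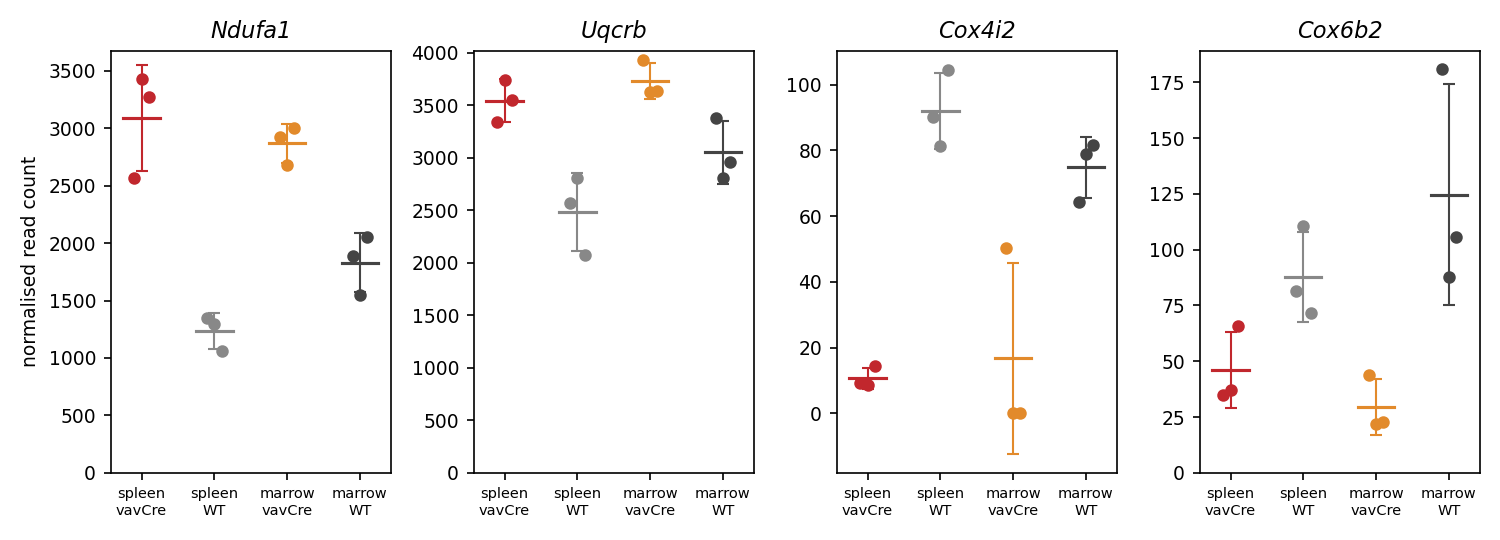
Normalised read counts (y axis) of the 4 members called in a vavCre comparison, by library (circles), with the mean (line) and SD (error bar) of each group of 3. Ndufa1 is higher in vavCre libraries of both tissues, and Cox4i2 is at 0 in 2 of 3 BMM_d7_vavCre libraries.

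The difference between the spleen and marrow effects of vavCre was tested for each member, and none was called, where 0.119% of all genes were (limma adjusted p; 0.112% in the positive and 0.00661% in the negative direction). At an unadjusted p under 0.05 there were 2 members, where 6.2% of all genes were, and edgeR and DESeq2 also called 0. The median difference was 0.16 over members and 0.03 over all genes.

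Wild-type splenic macrophages were set against wild-type marrow macrophages of the same age. Of 81 members, 1 was higher in spleen and 9 were lower (limma adjusted p under 0.05), where 3.89% of all genes were called (2.07% higher and 1.82% lower in spleen). Ndufa9, an accessory subunit that binds NADPH at the joint of the arms of complex I, had 1552, 1471 and 1869 in RPM_d7_WT, against 857, 1026 and 949 in BMM_d7_WT (log2 change 0.78, SE 0.195, limma adjusted p = 0.0284). Cox7c, a small membrane subunit of complex IV, had 1553, 1718 and 1290 in RPM_d7_WT, against 3304, 1885 and 2365 in BMM_d7_WT (-0.70, SE 0.178, limma adjusted p = 0.0318). Neither gene's groups overlapped. The other 8 are small subunits: Atp5g3, a proton-carrying ring subunit of complex V (-0.59), Atp5j2 of its membrane part (-0.56), Ndufa2 (-0.56), Ndufa3 (-0.76) and Ndufa1 (-0.57) of complex I, Uqcr11 of complex III (-0.68), and Cox6c (-0.53) and Cox8a (-0.41) of complex IV. Their limma adjusted p ran from 0.0356 to 0.0498, close to the threshold. The count was 0 without BMM_d7_WT replicate 1 or 3 or RPM_d7_WT replicate 3, 1 without RPM_d7_WT replicate 1 and 4 without RPM_d7_WT replicate 2, and it reached 14 at most when 1 library was left out.

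Members with short and with long transcripts differed in direction. Those of under 700 bases (30 genes) had a median log2 change of -0.41, and those of over 1500 bases (19) one of 0.21. Over all genes of these lengths the medians were -0.18 and 0.01. All 7 core subunits of complex I, the larger ones that carry its flavin and iron-sulfur centres, were above 0 (median 0.13), as were 6 of 30 others (median -0.30). By complex the median was -0.18 in I, 0.16 in II, -0.30 in III, -0.39 in IV and -0.15 in V. In 6 members all spleen libraries were above all marrow ones and in 34 below, where 10.9% and 9.72% of all genes were. With equal sums per library 3 were above and 34 below (9.22% and 11.8% of all genes). The 4 complex II genes, Sdha to Sdhd, lay between 0.02 and 0.21.

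The same tissues were compared in vavCre pups, in libraries not shared with the wild-type comparison. Uqcrc2, a core protein of complex III, was the 1 member called, where 3.5% of all genes were (2.68% higher and 0.82% lower in spleen). It had 2013, 1560 and 1426 in RPM_d7_vavCre, against 812, 1153 and 810 in BMM_d7_vavCre (log2 change 0.85, SE 0.209, limma adjusted p = 0.0275). Spleen libraries were all above marrow ones, but 504 of its exon bases are shared with Pdzd9 on the other strand. The call was lost without BMM_d7_vavCre replicate 1 (0.0967) or 3 (0.0872) or RPM_d7_vavCre replicate 1 (0.146) or 2 (0.066), and without BMM_d7_vavCre replicate 2 there were 2 members called. The change had the same sign as in wild type for 68 of 81 members, and for 9 of the 10 called there, none of which was called here. The median was -0.11 in members under 700 bases and 0.19 in those over 1500 bases. All 7 core subunits of complex I were above 0 again (median 0.19), as were 9 of 30 others (-0.14). In 6 members all spleen libraries were above all marrow ones and in 16 below, where 10.8% and 8.69% of all genes were. With equal sums per library 2 were above and 26 below (8.67% and 11.3% of all genes).

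**Figure D3:**
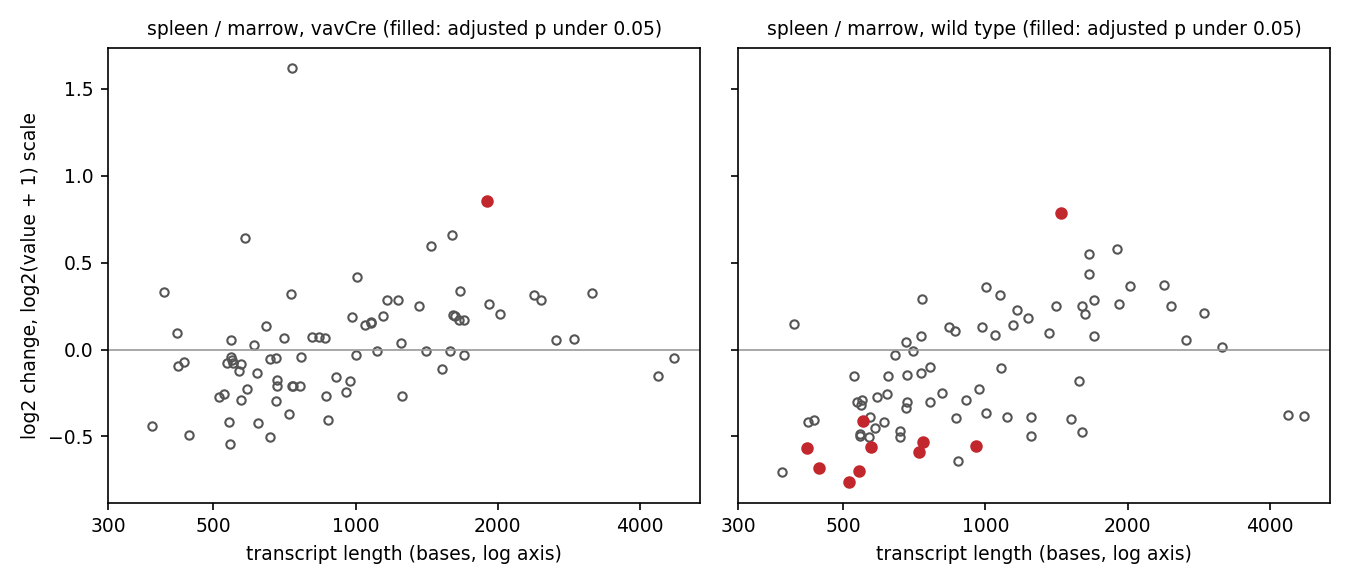
Log2 change of each member between spleen and marrow macrophages (y axis) against transcript length in bases (x axis), for vavCre pups on the left and wild-type pups on the right. Points are members; short members lie mostly below 0 in wild type, and Ndufa4l2 is not drawn.

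Genes around the complexes differed between the tissues as well. Ucp2, an inner membrane carrier, was higher in spleen than in marrow in vavCre (log2 change 1.15, limma adjusted p = 0.000482) and in wild type (0.95, limma adjusted p = 0.00319). In wild type the electron transfer genes Etfa (0.60) and Etfb (0.56) and the assembly factor Surf1 (0.90) were higher in spleen. Lower in wild-type spleen was mt-Nd6 (-0.75), a subunit from mitochondrial DNA whose gene overlaps that of mt-Nd5 on the other strand. In vavCre Cox10 (2.22) and Coq5, of ubiquinone synthesis (1.35), were higher in spleen. Apart from Ucp2, each of these calls was lost without at least 3 of the 6 libraries, left out singly, with an adjusted p of up to 0.181. Macrophage markers were higher in spleen too, 7 of 11 in vavCre and 5 of 11 in wild type. Their summed share was 2.42 to 2.81% in RPM_d7_vavCre and 1.79 to 1.82% in BMM_d7_vavCre, 2.66 to 3.02% in RPM_d7_WT and 1.95 to 2.36% in BMM_d7_WT. Of 7 B cell markers 2 were lower in spleen, Igll1 (-5.98 in vavCre, -7.66 in wild type) and Vpreb1 (-5.46 and -6.17). The endothelial marker Pecam1 was higher in spleen (2.60 in vavCre, 2.43 in wild type), the 1 of 7 stromal and endothelial markers called. In vavCre 5 of 14 erythroid markers (1.17 to 1.62% in RPM_d7_vavCre, 0.978 to 1.44% in BMM_d7_vavCre) and 1 of 9 neutrophil markers were higher in spleen, and in wild type none of either list was called. The part of these markers in the results was not tested.

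Spic encodes a transcription factor on which red pulp macrophages depend. In Spic_KO pups 1 of 78 members rose and none fell, where 3.95% of all genes were called (1.47% higher and 2.48% lower in Spic_KO). Ndufa2, an accessory subunit of complex I, had 970 and 1098 in RPM_d7_Spic_KO, against 310, 456 and 536 in RPM_d7_Spic_WT. The knockout libraries were both above all wild-type ones (log2 change 1.28, SE 0.311, limma adjusted p = 0.0219). The call was lost without RPM_d7_Spic_KO replicate 2 (0.152), without RPM_d7_Spic_WT replicate 1 (0.126) or 2 (0.0564), and without both libraries that stand apart (0.0553), and 66 exon bases are shared with Tmco6 on the other strand. The count was 5 without RPM_d7_Spic_KO replicate 1 and 2 without RPM_d7_Spic_WT replicate 3. Ndufs4, an accessory subunit needed for a stable complex I, had 72.6 and 9.83 in RPM_d7_Spic_KO, against 203, 216 and 181 in RPM_d7_Spic_WT (-2.82, limma adjusted p = 0.0527). Both knockout libraries were below all wild-type ones, and they differed widely from each other. Cox6b2 was read 2 and 0 times in the knockout libraries (1.00 and 0), against 16.4, 36.4 and 14.6 in RPM_d7_Spic_WT (limma adjusted p = 0.0530). Cox4i2 was read once in each knockout library (0.501 and 0.517), against 12.6, 5.26 and 5.83 in RPM_d7_Spic_WT (limma adjusted p = 0.171).

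The median log2 change of members in Spic_KO was -0.19, against 0 over all genes. It was -0.18 in complex I, -0.12 in II, 0.06 in III, -0.17 in IV and -0.50 in V. In 11 members both knockout libraries were above all wild-type ones and in 22 below, where 14.8% and 19.4% of all genes were. Core subunits of complex I had a median of -0.93 and the others one of -0.09. The 13 subunits from mitochondrial DNA differed from this, and 7 of them fell. Among these were mt-Co1 of complex IV (log2 change -1.88, limma adjusted p = 0.000197), mt-Nd4 (-1.68), mt-Cytb of complex III (-1.69) and mt-Atp8 (-4.04). The summed share of all 13 was 1.24 to 1.89% in RPM_d7_Spic_KO and 3.77 to 4.48% in RPM_d7_Spic_WT. Tfam, whose protein packs mitochondrial DNA, fell by 2.56 (limma adjusted p = 0.0375) and Gabpa, the ETS factor named above, fell by 2.91 (0.00903). The carriers Ucp2 (-1.77) and Slc25a5 (-1.64) fell too, as did Timm23 (-4.11) and Phb (-2.66) of the same list. Etfb (-1.32), Idh3g of the citric acid cycle (-3.02) and the assembly factor Cox19 (-3.52) also fell. Of 17 alternatives, the call of mt-Atp8 held under all and that of Idh3g was lost under 1. Those of Timm23, Etfb, Cox19 and Phb were lost under 5, 7, 7 and 8. The call of Tfam was lost without any 1 of the 5 libraries (0.0522 to 0.168), that of Gabpa without RPM_d7_Spic_KO replicate 2 (0.0807) or RPM_d7_Spic_WT replicate 3 (0.0519), and that of Slc25a5 without RPM_d7_Spic_KO replicate 2 (0.142) or RPM_d7_Spic_WT replicate 1 (0.0555). Of the 11 macrophage markers 6 fell in the same libraries (1.22 to 1.34% of summed values in RPM_d7_Spic_KO, 2.11 to 3.01% in RPM_d7_Spic_WT). Of 14 erythroid markers 1 rose and 2 fell, 1 of 7 B cell markers rose and 1 of 21 cell cycle genes fell. Their part was not tested.

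In adults, CreERT2 macrophages were compared with wild-type ones under the same TAM label. No member was called, where 0.144% of all genes were (limma adjusted p; 0.0601% higher and 0.0841% lower in CreERT2). At an unadjusted p under 0.05 there were 9 of 78 members, where 7.5% of all genes were. edgeR called 0 and DESeq2 called 1. The smallest p belonged to Ndufv3, an accessory subunit near the NADH site of complex I, which had 27.3, 22.2, 39.5 and 27.0 in RPM_TAM_CreERT2, against 83.3 and 77.8 in RPM_TAM_WT (log2 change -1.47, SE 0.414, limma adjusted p = 0.290). All CreERT2 libraries lay below both wild-type ones. Cox4i2 was listed at 0 in all 4 CreERT2 libraries and at 0.817 and 4.70 in RPM_TAM_WT. The median log2 change of members was -0.23, against 0 over all genes, with -0.16 in complex I, -0.38 in II, -0.18 in III, -0.12 in IV and -0.47 in V. It was -0.55 without RPM_TAM_WT replicate 1 and 0.06 without RPM_TAM_WT replicate 3. In 2 members all CreERT2 libraries were above both wild-type ones and in 12 below, where 6.07% and 7.6% of all genes were. With equal sums per library none was above and 17 were below (5.07% and 8.75% of all genes). Of the other mitochondrial lists, Dld, a subunit shared by the 2-oxoacid dehydrogenases, was the 1 gene called (-3.45, limma adjusted p = 0.0432), a call lost without any 1 library other than RPM_TAM_CreERT2 replicate 4 (0.0686 to 0.432). Of 14 erythroid markers 2 rose, Hba-a1 (0.94) and Hba-a2 (1.35), but only 5 of the 14 had log2 changes above 0 (median -0.29). The list made up 12.7 to 20.8% of summed values in RPM_TAM_CreERT2 and 7.56 to 11.1% in RPM_TAM_WT, and its part was not tested.

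**Figure D4:**
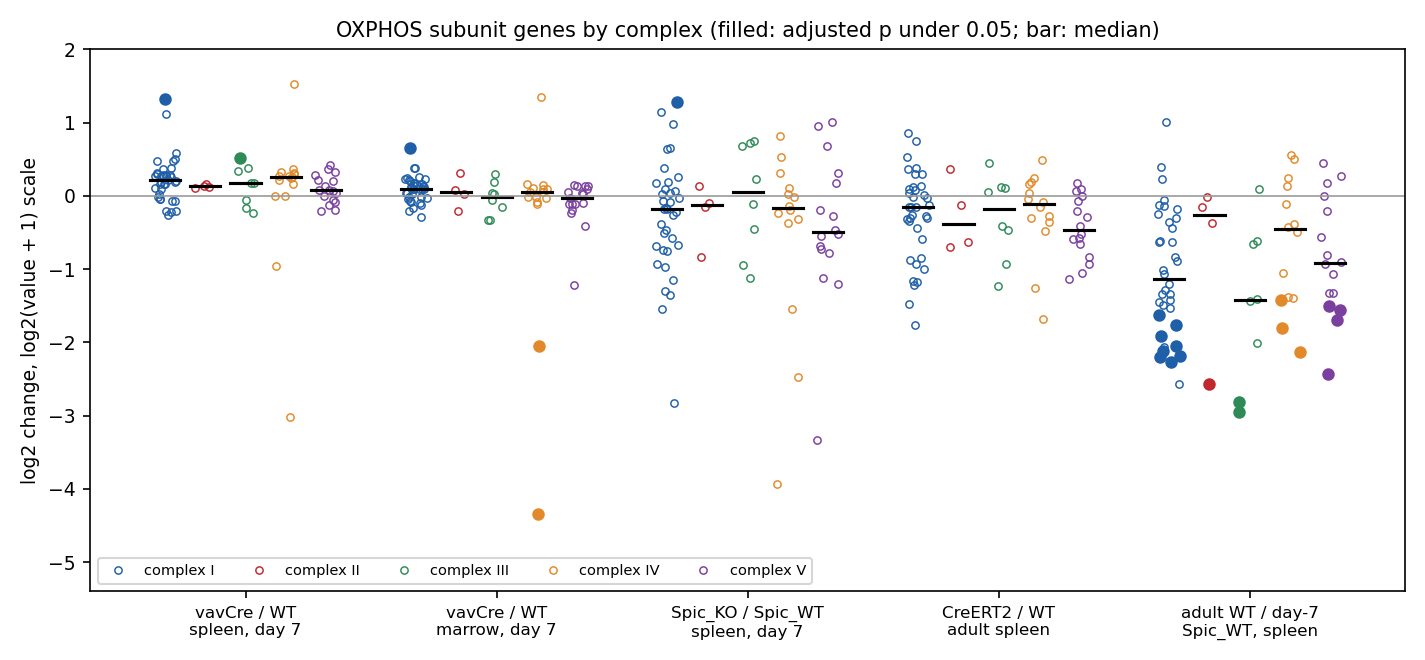
Log2 change of each member (points, y axis) in 5 comparisons (x axis), with complexes side by side in colours. Filled points passed limma's adjusted p under 0.05 and bars are medians of each complex. In adult against day-7 wild-type macrophages the medians of all 5 complexes lie below 0, and 18 members are filled.

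Adult wild-type macrophages (RPM_TAM_WT) were last set against day-7 wild-type macrophages of the same table (RPM_d7_Spic_WT). Age, the cross and the TAM label differ together here and cannot be told apart. Of 78 members, 18 fell and none rose, where 3.42% of all genes were called (1.56% higher and 1.86% lower in adults). They came from all complexes, with 8 of complex I, 1 of II, 2 of III, 3 of IV and 4 of V. Cox4i1 had 376 and 664 in RPM_TAM_WT, against 1613, 1805 and 1822 in RPM_d7_Spic_WT, well apart. It fell by 1.80 on the log2 scale (SE 0.256, limma adjusted p = 0.000414), and was the only member still called without RPM_TAM_WT replicate 1. Uqcrc1, a core protein of complex III, had 34.3 and 51.0 in RPM_TAM_WT, against 370, 314 and 309 in RPM_d7_Spic_WT. It fell by 2.95 (SE 0.560, limma adjusted p = 0.00457), and the groups were again far apart. The small complex III subunit Uqcr11 had 17.96 and 93.7 in RPM_TAM_WT, against 164, 400 and 402 in RPM_d7_Spic_WT (-2.82, SE 0.557, limma adjusted p = 0.00585).

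Complex II was not uniform in adults. Sdhb, the iron-sulfur subunit of succinate dehydrogenase, had 42.5 and 102 in RPM_TAM_WT, against 445, 361 and 390 in RPM_d7_Spic_WT, and fell by 2.57 (SE 0.569, limma adjusted p = 0.0133). Sdha, its flavoprotein partner, had 234 and 396 in RPM_TAM_WT, against 338, 392 and 290 in RPM_d7_Spic_WT, so that the groups overlapped (-0.15). The membrane anchors Sdhc and Sdhd had log2 changes of -0.02 and -0.37. In complex V, Atp5b, the catalytic subunit, fell by 1.55 (limma adjusted p = 0.00836). Atp5c1 of the central stalk (-1.70) and Atp5f1 (-1.51) and Atp5o (-2.43) of the outer stalk fell too. Of the Atp5g ring genes, which encode the same mature protein, none was called (Atp5g1 -0.81, Atp5g2 -1.33, Atp5g3 0.00). The complex I members were Ndufs7, an iron-sulfur subunit of the core (-2.06), and the accessory subunits Ndufb10 (-2.27), Ndufa8 (-2.20), Ndufa13 (-2.18), Ndufa11 (-2.13), Ndufa12 (-1.91), Ndufb7 (-1.77) and Ndufa10 (-1.62). In complex IV, Cox7b fell by 2.14 and Cox7a2l by 1.43, while Cox6a1 had a log2 change of 0.14.

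The median log2 change of members was -0.97, against 0 over all genes, with 12 of 78 members above 0. It was -1.14 in complex I, -0.26 in II, -1.43 in III, -0.46 in IV and -0.92 in V. Ndufa4 and Ndufa4l2 were placed in complex I by symbol, although their proteins belong with complex IV, and moving them gave -1.21 in I and -0.49 in IV. In 2 members both adult libraries were above all day-7 ones and in 47 below, where 18.4% and 19.2% of all genes were. With equal sums per library 1 was above and 46 below (17.8% and 19.5% of all genes). Core subunits of complex I had a median of -1.53 and the others one of -0.90. The largest positive value was that of Ndufa3 (1.01, limma adjusted p = 0.149). Without RPM_TAM_WT replicate 1, which held the fewer reads, 1 member was called (adjusted p of the other 17, 0.154 to 0.667), and without RPM_d7_Spic_WT replicate 1, 2 or 3 there were 7, 8 and 7. With only the 2 groups in the fit there were 5, and without the 2 libraries of other groups that stand apart there were 30. Several of these genes share exon bases with another gene on the other strand, among them Ndufa13 with Tssk6 (375), Atp5f1 with Wdr77 (337) and Cox4i1 with Emc8 (154).

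Genes of other mitochondrial lists fell in the adults as well. Of the 13 citric acid cycle genes 3 fell (log2 changes of -2.86 for Idh3g, -2.35 for Mdh2 and -1.94 for Suclg1), and of the 13 subunits from mitochondrial DNA 3 fell (mt-Atp8 -2.63, mt-Co1 -1.55 and mt-Nd4 -1.04). Etfb had 123 and 170 in RPM_TAM_WT, against 1155, 1115 and 1329 in RPM_d7_Spic_WT, and fell by 3.04 (limma adjusted p = 2.93e-05), also without any 1 library. The carrier Slc25a5 fell by 1.46 (limma adjusted p = 0.0206), a call lost under 4 of 16 alternatives. The calls of the 6 genes from the citric acid cycle and mitochondrial DNA lists were lost without RPM_TAM_WT replicate 1. Those of Suclg1 and mt-Atp8 were also lost without any 1 of the RPM_d7_Spic_WT libraries (0.0648 to 0.202). That of mt-Nd4 was lost without RPM_d7_Spic_WT replicate 2 (0.0687) or 3 (0.106). No assembly factor among 49 and none of 12 regulators of mitochondrial biogenesis was called. At an unadjusted p under 0.05 there were 13 assembly factors (26.5%) and 1 regulator (8.3%), where 15.8% of all genes were. The median log2 change was -0.73 in assembly factors and 0.19 in regulators, against 0 over all genes. Marker genes moved in these libraries: 4 of 11 macrophage markers fell (1.55 to 1.95% of summed values in RPM_TAM_WT, 2.11 to 3.01% in RPM_d7_Spic_WT), and 2 of 14 erythroid (7.56 to 11.1% against 5.22 to 7.38%), 3 of 7 B cell (0.0559 to 0.0565% against 0.0314 to 0.0415%) and 2 of 6 T and NK cell markers rose. The 2 erythroid markers were Hba-a1 (0.88) and Hba-a2 (1.59), and 7 of the 14 had log2 changes above 0 (median 0.19). The part of all these markers and of depth in the result was not tested.

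**Figure D5:**
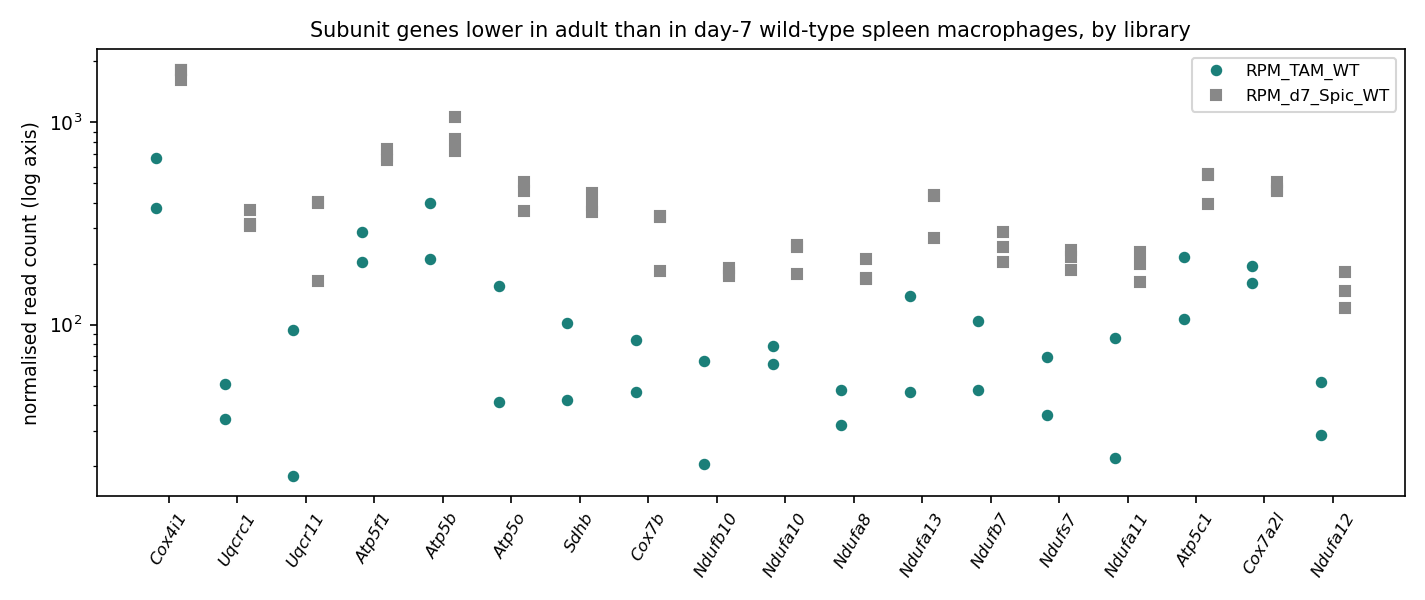
Normalised read counts (log axis) of the 18 members called in adults, by library, with circles for RPM_TAM_WT and squares for RPM_d7_Spic_WT. Both adult libraries lie below all day-7 libraries for each of them, with the widest gap in Uqcrc1.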

How the data were processed

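Per the labels' protocols, libraries were made from sorted cells with oligo-dT priming, PCR and Nextera tagmentation. The submitters' processing notes name GRCm38, STAR and edgeR, with no version or role. The authors deposited normalised read counts (unit: signal), in tables of 22524 and 25700 genes. With 1 scale factor per library, 97.7 to 100% and 96.6 to 100% of values became whole reads to within 0.1 read. Every column was used.

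Members and lists were chosen with earlier results of these data known. Tests covered genes that reached a value of 1 in 2 or more libraries (15130 and 16650 genes). limma 3.58.1 (R 4.3.3, trend and robust) was fitted to log2(value + 1) over all groups of a table, a pseudocount that understates changes of low genes, with Benjamini-Hochberg adjusted p under 0.05 as a call. The design allowed a count test only for raw counts, so limma was used. Levels per kb divide by the transcript length. Alternatives used other filters, pseudocounts, scalings and weights, the compared groups only, a replicate block, each library left out, and edgeR 4.0.16 and DESeq2 1.42.0 on recovered reads; the test was tested on simulated data. Named genes were the called members (up to 12 by p), the highest per complex, those of largest change, isoform pairs, and called genes of other lists (up to 4 each); others in the text were chosen after their values were seen. Coordinates are from GENCODE vM21 (1-based). No source says whether counting used strand, so genes that share exons cannot be told apart. Counting intervals are not given, since PCR reads are not independent molecules.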

Additional observations from a re-analysis of the deposited data

Results flagged for a closer look

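In RPM_TAM_CreERT2, the 1 group with 4 libraries, 7 values had a single library far from the others, by the gap to its nearest neighbour as a share of the group's range (Dixon's ratio, above its 95% critical value). The screen covered 84 values that varied, of members and of complex shares, and chance flags about 1 in 20, or 4.2 of them. Replicate 2, the library with the fewest reads, was high for Cox6b2 (ratio 0.902, 3.41 to 84.2) and was the only one with reads of Ndufa4l2 (ratio 1.0, 0 to 8.86). Replicate 4 was high for Cox7a2 (ratio 0.882, 161 to 240), for the share of complex I in the summed values (0.929, 0.233 to 0.302%) and for the share of all members (0.892, 0.773 to 0.953%). Replicate 5 was high for Ndufa10 (0.887, 82.0 to 100) and low for Uqcrb (0.883, 65.5 to 262).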

How the results depend on the processing

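No called gene changed sign; the untested medians of CreERT2 and of the vavCre tissue comparison crossed 0 when 1 library was left out. Of 35 calls of members, 1 (Ndufa1 in splenic vavCre) held under every alternative and 34 were lost under at least 1; of 38 calls of genes of other lists, 7 held under every alternative. Cox4i2, not called in 3 comparisons, passed under some alternatives in splenic vavCre and under none in Spic_KO and CreERT2. Numbers of members called moved as follows. In splenic vavCre (2) there were 6 with DESeq2, 1 with equal sums and 7 with library weights. In marrow vavCre (3) there was 1 with edgeR and 1 with only the compared groups. Between wild-type tissues (10) there were 19 with DESeq2, 1 with only the compared groups, 16 with library weights, 2 with no filter and 3 with the replicate block. Between vavCre tissues (1) there were 2 with DESeq2, 0 with only the compared groups and 0 with no filter. In Spic_KO (1) there were 9 with DESeq2, 2 with edgeR, 3 with a filter at 10, 0 with only the compared groups, 2 with a pseudocount of 0.1 and 3 without RPM_d7_Spic_KO replicate 2 and RPM_TAM_CreERT2 replicate 2. In CreERT2 (0) DESeq2 gave 1. In adults against day 7 (18) there were 5 with only the compared groups, 28 with library weights and 30 without those 2 libraries. The cause was not tested. The median change of members was 0.10 in splenic vavCre and -0.11 between vavCre tissues with equal sums; between wild-type tissues it was -0.26 with DESeq2, -0.30 with equal sums and -0.18 with a pseudocount of 5.

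Leaving out 1 library at a time gave 1 to 2 calls in splenic vavCre, 1 to 4 in marrow vavCre, 0 to 14 and 0 to 2 between wild-type and between vavCre tissues, 0 to 5 in Spic_KO and 1 to 19 in adults. The median ran from 0.14 to 0.22 in splenic vavCre, -0.29 to -0.18 between wild-type tissues, -0.08 to 0.03 between vavCre tissues, -0.55 to 0.06 in CreERT2 and -1.28 to -0.67 in adults. Replicate numbers do not pair the libraries (correlations of deviations -0.045 to 0.064), and the block moved no other count by over 1.5 times. No paired analysis was possible because the groups shared too few numbers in CreERT2, and none was planned for adults against day 7. Depth limits low members most, since 3 reads in RPM_TAM_CreERT2 replicate 2 correspond to a value of 6.65.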

Other observations

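Some members of small size had both Spic_KO libraries above all wild-type ones without passing the threshold; they were picked after their values were seen. Ndufa3 had 323 and 284 in RPM_d7_Spic_KO, against 94.3, 122 and 220 in RPM_d7_Spic_WT (log2 change 1.15, limma adjusted p = 0.0836). Atp5e, of the central stalk of complex V, had 527 and 621 in RPM_d7_Spic_KO, against 220, 329 and 354 in RPM_d7_Spic_WT (0.95, limma adjusted p = 0.0907). Uqcrh, the hinge protein of complex III, had 657 and 713 in RPM_d7_Spic_KO, against 349, 449 and 428 in RPM_d7_Spic_WT (0.75, limma adjusted p = 0.107). In the same libraries Atp5j of complex V had 123 and 194 in RPM_d7_Spic_KO, against 301, 367 and 409 in RPM_d7_Spic_WT (-1.20, limma adjusted p = 0.116), and it shares 397 exon bases with Gabpa on the other strand.

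Ndufa4l2, a relative of Ndufa4 known as a target of hypoxia-inducible factor, had 9.21, 4.24 and 13.5 in RPM_d7_vavCre, against 0, 0 and 2.26 in BMM_d7_vavCre. The spleen libraries were all above the marrow ones (log2 change 2.63, limma adjusted p = 0.144), at levels of a few reads.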
